A study of Mus musculus with 6 samples.

Results

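The DEAD-box and DEAH-box RNA helicases were taken as every gene whose symbol is Ddx or Dhx followed by a number, without *Ddx4*, *Ddx6* and *Ddx3y*. This gave 49 of the 15707 genes listed in the deposited expression table, of which 45 had a mean over both groups of at least 1 FPKM (mapped fragments, normalized to the length of the transcript and to the library's total) and are called measured here. The other 4, *Ddx31*, *Ddx60*, *Dhx37* and *Dhx58*, lay below that level, with *Ddx60* the highest of them at 0.630 FPKM in control and 0.637 FPKM in *Btg4*-depleted oocytes. The rule selects by symbol and by no value of the comparison, but it was set with earlier results of these data known.

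The libraries came from mouse oocytes of the (C57BL x CBA) F1 strain that had been grown inside follicles, taken from females aged 10 to 12 days and cultured for 8 to 10 days. The follicle-enclosed oocytes were injected with siRNAs against *Btg4*, an adaptor of the CCR4-NOT deadenylase, or with control siRNAs (Scr), and collected in early metaphase II (MII), the stage at which the egg waits for fertilization. Both groups were therefore injected and cultured, and differed in the siRNA. There were 3 libraries of 50 oocytes in each group, with oocytes of several females pooled. The comparison asks which polyadenylated transcripts differ in level when *Btg4* is depleted.

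Only the authors' mean FPKM of each group was analysed here, so there is no replicate error, no test and no p-value for any difference below, and it cannot be said whether the libraries of the groups overlapped. Depth was estimated at 7820000 fragments per library, from the mean normalized counts deposited for 320 genes. The 95% intervals given with ratios follow from that estimate and cover counting error only, with none of the error between replicates. The log2 ratio is that of the scaled group mean plus 1 FPKM, *Btg4*-depleted over control. In bulk samples of this kind less RNA per oocyte, fewer oocytes and a shorter poly(A) tail on the same RNA cannot be told apart.

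The labels were checked on the targeted gene, since *Btg4* stood at 1766 FPKM in control and 39.3 FPKM in depleted oocytes (log2 ratio -5.29). As in a knockdown, some of it was left. All 12 oocyte markers were listed, with a summed 23014 FPKM in control and 20657 FPKM in depleted oocytes. Of 19 granulosa and cumulus cell markers 13 were listed, summing to 37.1 FPKM and 39.2 FPKM. Of the 7 measured ones 2 were at least 2-fold higher and 1 was lower (19.5% and 11.4% of all measured genes). Those higher were *Inhba* (4.28 FPKM and 9.24 FPKM) and *Gja1* (0.183 FPKM and 4.33 FPKM), and the lower was *Cyp19a1* (14.8 FPKM and 5.87 FPKM). *Gja1* passed the filter on the mean only through the depleted group. The remaining 6 of the 19 markers, among them *Amh*, *Foxl2* and *Fshr*, were not listed. The part of such cells in the results was not tested. Scaling was by a factor of 0.16 on the log2 scale, which shifts the ratios of low genes by less because of the added 1 FPKM, and it moved the median of all 10012 measured genes from -0.15 to -0.02.

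RNA helicases of these families use ATP to bind RNA, part short duplexes and remodel RNA-protein complexes. DEAD-box proteins mostly act locally on an RNA, while many DEAH-box proteins move along it, and the families are named for the letters of a motif in the ATP-hydrolysing core. Members work at nearly every step of an mRNA's life and in ribosome assembly. Fully grown oocytes are transcriptionally silent and live on stored mRNAs, many of which are deadenylated and removed as meiosis proceeds.

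The motif is shown for helicases on which the results turn, because the families are named for it. It also lets paralogs be compared, over a short stretch only. Each window is 30 bases of the coding strand, 5′ to 3′, from GENCODE M21 on GRCm38, with the 4 codons of the motif in capitals. All windows lie in coding exons.
Ddx28: atagtgctaGATGAAGTAGACacactgcta
Ddx25: tttgtcctgGATGAAGCAGATgtgatgatt
Ddx19a: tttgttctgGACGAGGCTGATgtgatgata
Ddx19b: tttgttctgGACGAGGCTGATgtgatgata
Ddx39: tttgtgctaGATGAATGTGACaagatgctg
Ddx39b: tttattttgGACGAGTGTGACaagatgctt
Ddx21: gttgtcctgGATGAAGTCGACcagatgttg
Ddx50: gttgtgcttGATGAAGTAGATcaaatgtta
Ddx3x: ctggtgttaGATGAAGCTGACcggatgtta
Ddx52: ctggtagtaGATGAATCAGACaaactgttt
Dhx15: ataattcttGATGAGGCCCATgaaagaaca

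The *Ddx28* window is at chr8:106010549-106010578 on the minus strand, in exon 1. That of *Ddx25* is at chr9:35551326-35551355, minus strand, exon 8. The windows of *Ddx19a* (chr8:110979077-110979106) and *Ddx19b* (chr8:111011326-111011355) are in exon 8 on the minus strand of one chromosome and hold the same 30 bases. *Ddx39* (chr8:83721101-83721130) and *Ddx39b* (chr17:35247081-35247110) have theirs in exon 5 on the plus strand, with the cysteine codon TGT inside the motif. *Ddx21* (chr10:62591872-62591901) and *Ddx50* (chr10:62640502-62640531) have theirs in exon 6 on the minus strand. The *Ddx3x* window is at chrX:13289399-13289428, plus strand, exon 11. That of *Ddx52* is at chr11:83952122-83952151, plus strand, exon 8, and that of *Dhx15* at chr5:52171487-52171516, minus strand, exon 4.

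In the matched transcripts 24 of the 49 genes encoded DEAD at this place, 9 encoded DEAH, 14 had another spelling, and in 2 (*Ddx60* and *Dhx32*) the search found none. The symbol did not always follow the letters, since *Ddx11* had the DEAH form. Of the 23 measured genes with DEAD, 5 were past 2-fold on the high side (a log2 ratio of at least 1; 19.5% of all measured genes) and 1 on the low side (11.4%), with a median log2 ratio of 0.34. Of the 8 with DEAH none was 2-fold higher and 1 was 2-fold lower, with a median of 0.43. Of the 13 with another spelling 4 were higher and 1 was lower, with a median of 0.56.

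Across the 45 measured helicases 9 were 2-fold or more higher after *Btg4* depletion, which is 20.0% and next to the 19.5% of all measured genes. Only 3 were at least 2-fold lower, 6.67% against 11.4% of all measured genes. The share of helicases past 2-fold on the high side was thus near that of the background. It includes *Ddx51* and *Dhx34*, which were under 1 FPKM in control and passed the filter on the mean only through the depleted group. With no filter 9 of 49 helicases were higher (18.4%) and 3 were lower (6.12%). The shares of all listed genes were then smaller than those of the measured genes. Without the filter the helicases lay above all genes on the high side, and below their 7.62% on the low side. The filter removes unlike parts of each set, since 45 of 49 helicases were measured but only 10012 of 15707 listed genes. The part of the unmeasured genes in this difference was not tested. At a minimum of 5 FPKM the order on the high side was reversed, with 16.7% of helicases and 21.2% of all genes. The median log2 ratio of the measured helicases was 0.40 (quartiles -0.42 and 0.76), while that of all measured genes was -0.02 (quartiles -0.66 and 0.77). The ratio was above 0 for 30 helicases and below 0 for 15, so that 66.7% lay above 0 compared with 49.4% of all measured genes. In the FPKM as deposited, before scaling, 27 were higher and 18 lower. With no scaling the genes past 2-fold among all measured genes split differently, 49.1% of them being higher in place of 63.1%, and for the helicases the share was 66.7% in place of 75.0%.

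**Figure D1:**
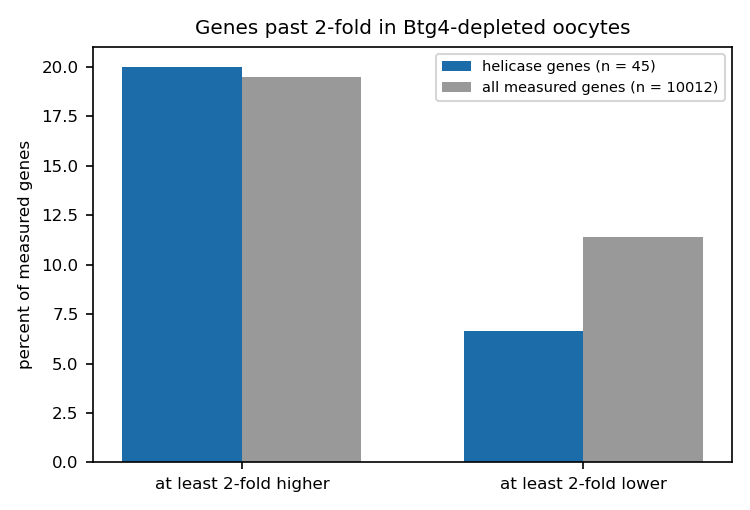
Percent of measured genes that were 2-fold or more higher or lower after *Btg4* depletion (bars start at 0), for the 45 helicase genes and all 10012 measured genes, which include the helicases. On the high side the bars stand at 20.0% and 19.5%, on the low side at 6.67% and 11.4%.

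The helicases together summed to 1038 FPKM in control and 1013 FPKM in *Btg4*-depleted oocytes, 0.254% and 0.237% of the FPKM of all genes. *Ddx3x* alone made up 23.3% of the sum in control oocytes and 11.0% in depleted oocytes. Without it the sum was 796 FPKM in control and 902 FPKM in depleted oocytes. Group means ranged from 0.630 to 242 FPKM in control and from 1.80 to 112 FPKM in depleted oocytes. In control oocytes the highest was *Ddx3x* (242 FPKM), before *Ddx24* (91.0 FPKM), *Ddx39* (83.9 FPKM), *Ddx5* (72.5 FPKM) and *Dhx32* (49.5 FPKM). In depleted oocytes *Ddx24* (112 FPKM) and *Ddx3x* (111 FPKM) were level at the top, and *Ddx28*, which lay at 11.7 FPKM in control, came next at 68.4 FPKM. The order of the levels was otherwise largely shared, with a Spearman correlation of 0.76 between the groups over the 45 genes and 0.86 over all measured genes.

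**Figure D2:**
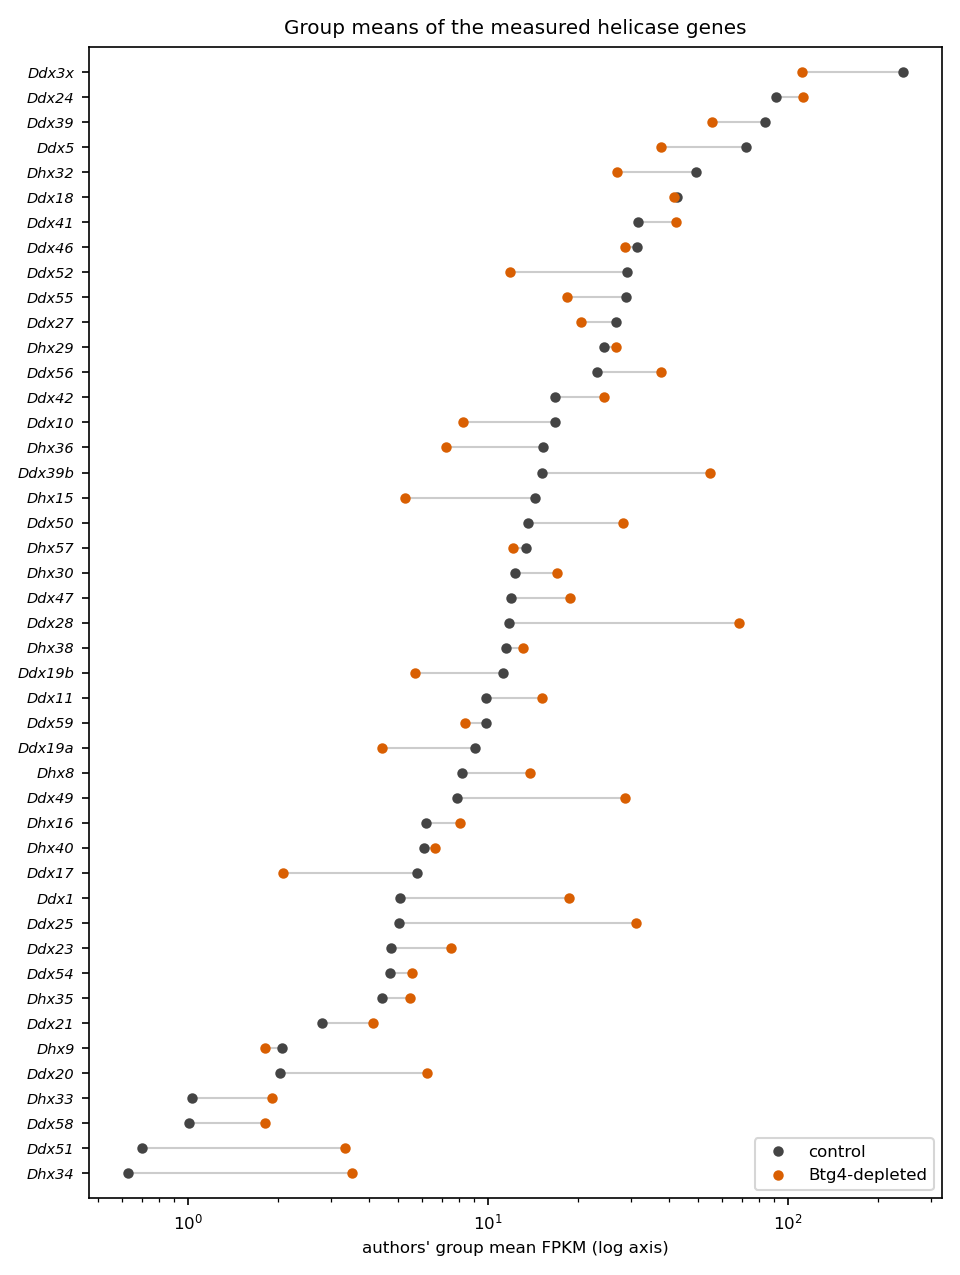
Group mean FPKM of the 45 measured helicase genes on a log axis, ordered by the control mean, with control in grey and *Btg4*-depleted in orange and a line joining both means of a gene. *Ddx3x* is the highest in control at 242 FPKM, and the orange points of *Ddx28* (68.4 FPKM) and *Ddx25* (31.0 FPKM) lie far to the right of their control points.

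Helicases of ribosome assembly formed the largest group, with 14 measured genes, of which 3 were at least 2-fold higher and 1 was at least 2-fold lower (median log2 ratio 0.51). As in every role group below, these counts are to be read against the 19.5% and 11.4% of all measured genes, and here they lay near them. *Ddx49*, which takes part in ribosomal RNA processing in human cells, stood at 7.87 FPKM in control and 28.6 FPKM in depleted oocytes, a log2 ratio of 1.89 (95% counting interval 1.74 to 2.04). In the annotation 40.9% of its transcript lies over exons of *Homer3* on the other strand. Where counting does not use strand, which is not given in the sources used here, their reads cannot be told apart, and *Homer3* was listed at 0.797 FPKM and 3.15 FPKM. *Ddx51*, needed for maturation of the large-subunit rRNA, was low in control oocytes at 0.703 FPKM and stood at 3.34 FPKM in depleted oocytes (log2 ratio 1.45, 1.27 to 1.62). The added 1 FPKM weighs on a gene this low, and the deposited means alone differed 4.75-fold. *Ddx50*, a nucleolar helicase, had 13.6 FPKM and 28.1 FPKM (1.15, 1.04 to 1.27). Its closest relative *Ddx21*, which acts in rRNA transcription and processing, had 2.80 FPKM and 4.13 FPKM (0.56), so that *Ddx50* was 4.85 times *Ddx21* in control and 6.80 times in depleted oocytes. Of the 50-base words of the *Ddx50* transcript 17.3% also occur in other annotated genes, mostly *Gm8228*.

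On the other side *Ddx52*, whose yeast counterpart Rok1 acts in small-subunit assembly, stood at 29.0 FPKM in control and 11.8 FPKM in depleted oocytes (log2 ratio -1.07, -1.18 to -0.97). The interval reaches inside the 2-fold line. *Ddx10*, the counterpart of yeast Dbp4 in small-subunit assembly, was next at 16.7 FPKM and 8.22 FPKM (-0.79), and *Ddx55*, the counterpart of yeast Spb4 in large-subunit assembly, had 28.9 FPKM and 18.3 FPKM (-0.48). *Ddx27*, whose yeast counterpart is Drs1, differed less, at 26.7 FPKM and 20.4 FPKM (-0.21). *Ddx24*, the most abundant of the group and related to yeast Mak5, stood at 91.0 FPKM and 112 FPKM (0.46). *Ddx18*, the counterpart of yeast Has1, had nearly equal means of 42.5 FPKM and 41.7 FPKM (0.13), but 62.7% of its 50-base words occur in other annotated genes, so its level is uncertain. The remaining measured members were higher by less than 2-fold. *Ddx56*, like yeast Dbp9 a large-subunit factor, stood at 23.0 FPKM and 37.7 FPKM (0.85), *Ddx47*, the counterpart of yeast Rrp3, at 11.9 FPKM and 18.7 FPKM (0.76). *Dhx33*, a nucleolar helicase, was at 1.03 FPKM and 1.90 FPKM (0.61), and *Ddx54*, the counterpart of yeast Dbp10, at 4.72 FPKM and 5.57 FPKM (0.34). Factors of both ribosomal subunits thus lay on either side of 0.

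All 9 listed helicases of the spliceosome were measured, and 8 of them had a ratio above 0 (with no scaling *Ddx46* lay below, at -0.13), though none reached 2-fold on that side (median log2 ratio 0.47). *Dhx8*, which releases the spliced mRNA, was the highest in ratio with 8.20 FPKM in control and 13.8 FPKM in depleted oocytes (0.83). *Ddx23*, the counterpart of yeast Prp28, which acts as the spliceosome is activated, had 4.75 FPKM and 7.50 FPKM (0.70). *Ddx42*, found with early spliceosomal complexes, had 16.7 FPKM and 24.3 FPKM (0.67), and *Ddx41*, present in later ones, had 31.5 FPKM and 42.2 FPKM (0.57). *Dhx16* and *Dhx38*, counterparts of yeast Prp2 and Prp16 that drive the steps around catalysis, stood at 6.23 FPKM and 8.06 FPKM (0.47) and at 11.5 FPKM and 13.1 FPKM (0.32). *Dhx35*, also found in human spliceosomes, had 4.43 FPKM and 5.50 FPKM (0.40). *Ddx46*, the counterpart of yeast Prp5 in branch-site recognition, was close to equal at 31.3 FPKM and 28.5 FPKM (0.03). The exception was *Dhx15*, the counterpart of yeast Prp43, which takes spliceosomes apart and also works on pre-ribosomes. It stood at 14.3 FPKM in control and 5.27 FPKM in depleted oocytes, a log2 ratio of -1.14 (-1.29 to -0.99). No measured helicase had a lower ratio with 1 FPKM added, but with 0.1 FPKM added *Ddx17* did (-1.28, against -1.26 for *Dhx15*).

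Paralogs lay on opposite sides among the mRNA export helicases, of which 5 were measured, 2 at least 2-fold higher and none 2-fold lower (median log2 ratio -0.42). *Ddx39b* (UAP56), the helicase of the TREX complex that loads export factors on mRNA, stood at 15.1 FPKM in control and 55.0 FPKM in depleted oocytes (1.95, 1.83 to 2.08). Its paralog *Ddx39*, which can act in its place, stood at 83.9 FPKM and 55.8 FPKM (-0.42). The level of *Ddx39b* per level of *Ddx39* was thus 0.180 in control and 0.985 in depleted oocytes, a quotient within a group that no scaling between groups can move. *Ddx25*, known as a gonadotropin-regulated helicase of the testis, was at 5.03 FPKM in control and 31.0 FPKM in depleted oocytes (2.55, 2.37 to 2.74). Its relatives *Ddx19a* and *Ddx19b*, which release export factors at the nuclear pore, lay on the other side. *Ddx19a* had 9.04 FPKM and 4.43 FPKM (-0.75) and *Ddx19b* had 11.2 FPKM and 5.72 FPKM (-0.71). The quotient of *Ddx25* over *Ddx19a* was 0.556 in control and 6.99 in depleted oocytes, while that of *Ddx19b* over *Ddx19a* was 1.23 and 1.29. The paralogs printed above with one and the same window share 33.3% of the 50-base words of *Ddx19a*, so their separate levels are uncertain. The deposited length of *Ddx25* is 1675 bases, while the matched GENCODE transcript has 6934.

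In the group of translation and mRNP helicases 4 genes were measured (median log2 ratio -0.26). *Ddx3x*, an X-linked helicase that helps ribosomes through structured 5′ ends, stood at 242 FPKM in control and 111 FPKM in depleted oocytes (-0.95, -0.98 to -0.92), just short of 2-fold. With no scaling its ratio was -1.11. *Dhx36*, which unwinds G-quadruplexes, had 15.2 FPKM and 7.24 FPKM (-0.82). *Dhx29*, which assists scanning by the small ribosomal subunit, was nearly level at 24.3 FPKM and 26.7 FPKM (0.29). *Dhx34*, which works with UPF1 in nonsense-mediated decay, was low at 0.630 FPKM in control and stood at 3.51 FPKM in depleted oocytes (1.56, 1.37 to 1.75). The deposited means of *Dhx34* differed 5.57-fold, with an estimated 56.2 fragments over the 3 control libraries together and 313 over the 3 depleted libraries.

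With 1 FPKM added the largest ratio of the measured helicases was that of *Ddx28*, while with 0.1 FPKM added *Ddx25* was above it (2.76 and 2.70). *Ddx28* is a mitochondrial helicase needed to assemble the large subunit of the mitochondrial ribosome. Its mean was 11.7 FPKM in control and 68.4 FPKM in depleted oocytes (log2 ratio 2.61, 2.48 to 2.73), and its share of the summed helicase FPKM was 1.13% and 6.76%. *Dhx30*, which acts in the same assembly, had 12.3 FPKM and 17.0 FPKM (0.59). The quotient of *Ddx28* over *Dhx30* was 0.950 in control and 4.03 in depleted oocytes. *Ddx28* overlaps *Dus2* on the other strand over 3.18% of its transcript, and *Dus2* stood at 2.17 FPKM and 5.17 FPKM. Of the helicases that sense foreign RNA, *Ddx58* (RIG-I) was measured, at 1.01 FPKM and 1.81 FPKM (0.58).

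**Figure D3:**
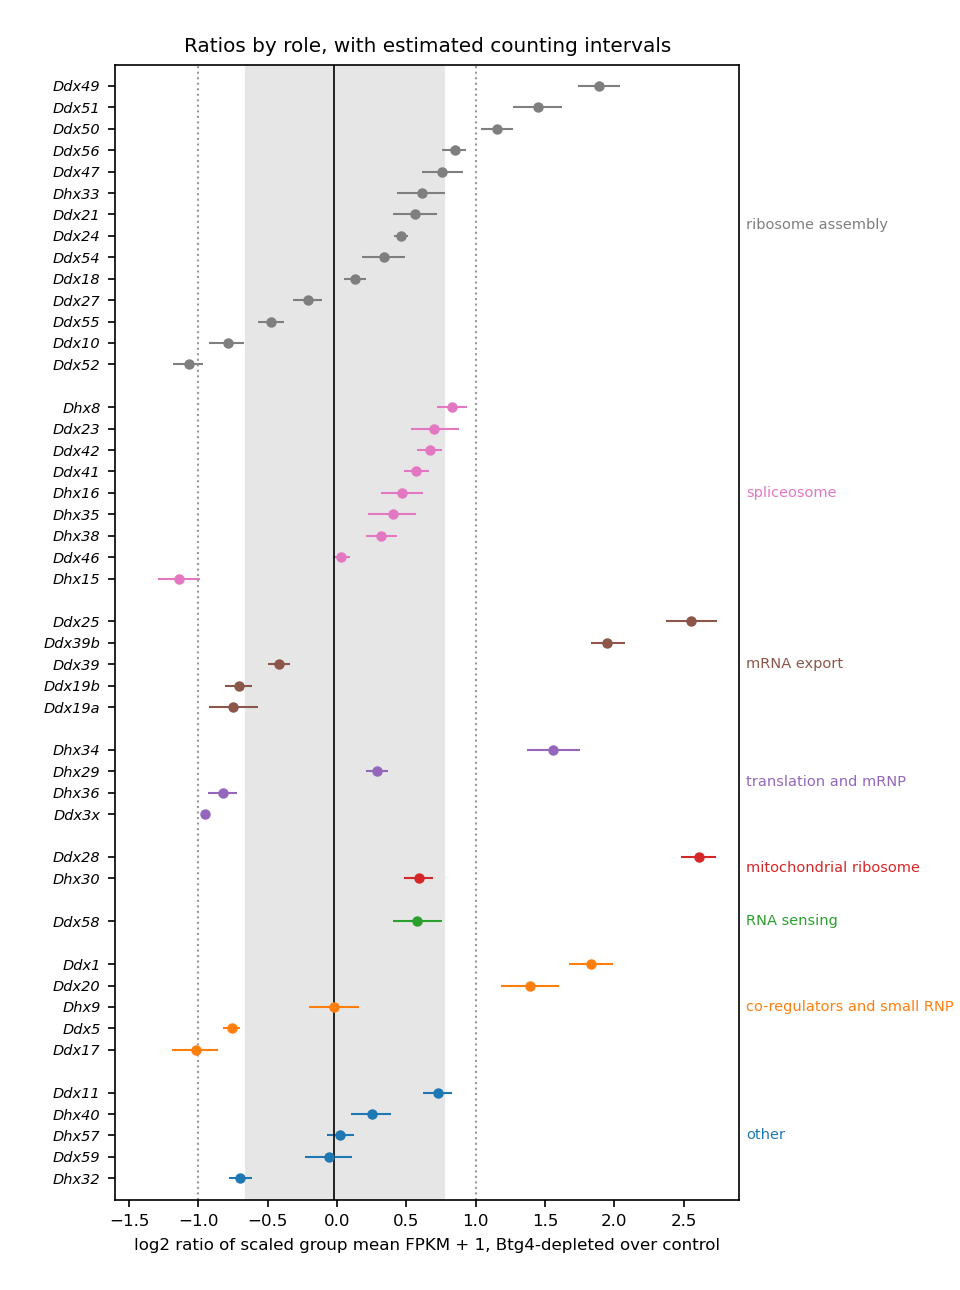
Log2 ratio of the scaled group mean plus 1 FPKM for each measured helicase gene, grouped by role. Bars are the estimated 95% counting intervals, which hold no replicate error, dotted lines mark 2-fold, and the black line and grey band are the median (-0.02) and quartiles (-0.66 and 0.77) of all measured genes. The points run from *Dhx15* at -1.14 to *Ddx28* at 2.61.

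Among the transcriptional co-regulators and helicases of small RNPs, 2 of 5 were at least 2-fold higher and 1 was at least 2-fold lower. *Ddx1*, a part of the tRNA ligase complex, stood at 5.08 FPKM in control and 18.6 FPKM in depleted oocytes (1.83, 1.67 to 1.99). *Ddx20* (Gemin3), the helicase of the SMN complex that assembles spliceosomal snRNPs, had 2.02 FPKM and 6.25 FPKM (1.39, 1.18 to 1.60). *Ddx5* and *Ddx17* are close paralogs that act in transcription, splicing and microRNA processing, and both were lower. *Ddx5* stood at 72.5 FPKM and 37.8 FPKM (-0.76), and 22.7% of its 50-base words also occur in other genes. *Ddx17* stood at 5.81 FPKM and 2.07 FPKM (-1.02, -1.19 to -0.86), so that *Ddx5* was 12.5 times *Ddx17* in control and 18.2 times in depleted oocytes. Once the trend of the ratio with transcript length was removed, the value for *Ddx17* was -0.82, short of 2-fold. *Dhx9*, a helicase of many nuclear RNAs, was nearly level at 2.05 FPKM and 1.80 FPKM (-0.02).

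None of the 5 remaining helicases passed 2-fold. *Ddx11*, a DNA helicase of sister-chromatid cohesion, had 9.82 FPKM in control and 15.1 FPKM in depleted oocytes (0.73). *Dhx32* had 49.5 FPKM and 26.9 FPKM (-0.70). *Dhx40* had 6.11 FPKM and 6.66 FPKM (0.25), *Dhx57* had 13.4 FPKM and 12.1 FPKM (0.02), and *Ddx59* had 9.80 FPKM and 8.35 FPKM (-0.06). By symbol, 8 of 31 measured genes named Ddx were at least 2-fold higher and 2 were lower (median 0.56), and of 14 named Dhx 1 was higher and 1 was lower (median 0.31).

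The ratio went with transcript length and with level. Over the 45 helicases the Spearman correlation of the log2 ratio with deposited length was -0.28, and over all 10012 measured genes it was -0.33. With the control FPKM it was -0.45 and -0.27, where the control value enters both sides. These are descriptions across genes that share the same libraries. The measured genes were divided by length into short, middle and long classes of equal size. Of the 5 helicases in the short class (up to 1982 bases), *Ddx25*, *Ddx28* and *Ddx39b* were at least 2-fold higher, and 31.7% of all genes of such length were. None of the 5 was 2-fold lower, against 7.13% of all genes there. The deposited lengths of *Ddx25* (1675 bases) and *Ddx28* (1871 bases) are uncertain, as their matched GENCODE transcripts have 6934 and 2262 bases. By the matched lengths neither would be in the short class. In the middle class (up to 3521 bases) 4 of 20 helicases were higher, 20.0% against 19.1% of all genes, and 2 were lower, 10.0% against 10.8%. In the long class 2 of 20 were higher, 10.0% against 7.67%, and 1 was lower, 5.00% against 16.3%. The median log2 ratio of the helicases and of all genes was 1.95 and 0.49 in the short class, 0.26 and 0.01 in the middle class and 0.33 and -0.43 in the long class. The medians were closest in the middle class, and the short class rests on 5 helicases.

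**Figure D4:**
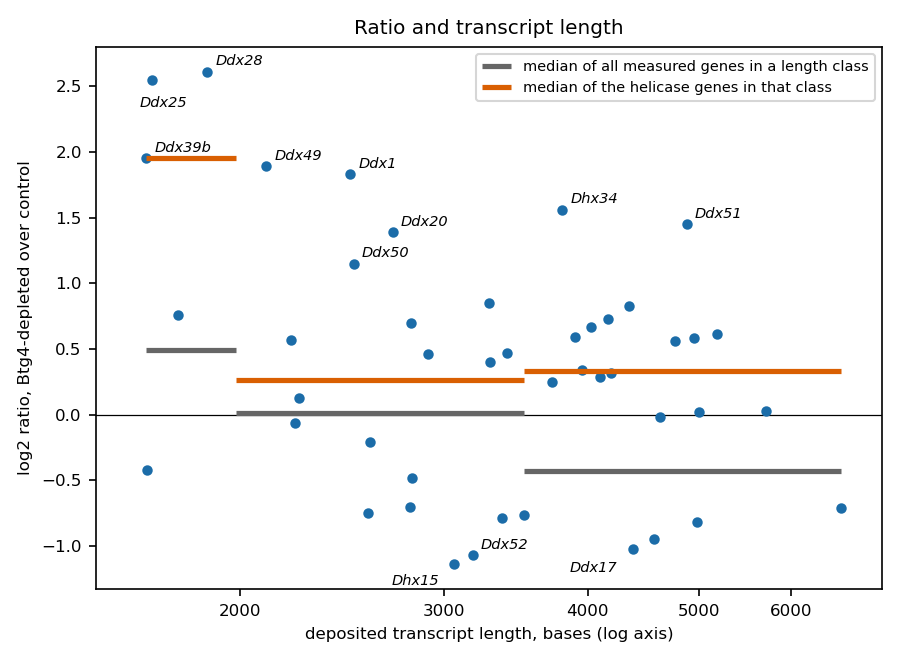
Log2 ratio of each measured helicase gene against its deposited transcript length (log axis), with the genes past 2-fold named. Orange lines are the median of the helicases and grey lines that of all measured genes in each of the 3 length classes (1.95 and 0.49, 0.26 and 0.01, 0.33 and -0.43), drawn over the helicases' range of lengths.

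The cytoplasmic polyadenylation element (CPE) is a U-rich 3′ UTR motif, read by CPEB proteins, through which stored oocyte mRNAs gain poly(A) tails during maturation. TTTTAT and TTTTAAT were searched on the sense strand in the last 150 bases of 3′ UTRs at least that long, where the annotated transcript was within 10% of the deposited length. At least one lay in 12 of 33 helicases (36.4%) and in 27.3% of 7113 genes. Windows of 30 bases around the match, with the motif in capitals, are shown for *Ddx3x*, the most abundant helicase in control, and for *Ddx50*, the only one with a match among the 8 searched of those past 2-fold. *Ddx1*, *Ddx25*, *Ddx28* and *Dhx34* were not searched, as they did not meet the criteria on the length of the transcript or of its 3′ UTR.
Ddx3x: catattctggTTTTATtaaaataaaaagtt
Ddx50: aaaaaaaagcccTTTTATtgtctgttttta

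The *Ddx3x* window lies at chrX:13293946-13293975 on the plus strand in exon 17, and that of *Ddx50* at chr10:62616015-62616044 on the minus strand in exon 15. The match was present in 1 of 5 searched helicases that were at least 2-fold higher, in none of 3 that were lower and in 11 of 25 between. Over all genes it was present in 14.0% of those higher, 39.1% of those lower and 27.3% of all searched. No separate share was computed for all genes between, beside the 44.0% of helicases there. The median log2 ratio was 0.08 for helicases with a match and 0.34 for those without, and -0.46 and 0.04 over all genes. A match is a run of letters and says nothing of the binding of a protein.

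Partners of the helicases were read from lists of genes that had been chosen for what they do, and their counts stand beside 19.5% higher and 11.4% lower over all measured genes. *Fam98c* and *Mov10*, named below, were under 1 FPKM in control and passed the filter through the depleted group. The TREX complex and its export receptor, with which *Ddx39b* works, had 14 measured genes, 5 at least 2-fold higher and 3 at least 2-fold lower (median log2 ratio 0.17). Among them *Nxf1*, the mRNA export receptor, stood at 10.2 FPKM in control and 49.1 FPKM in depleted oocytes (2.31), *Thoc5* at 3.24 FPKM and 13.9 FPKM (1.95), and the adaptor *Alyref* at 5.70 FPKM and 19.5 FPKM (1.76). *Poldip3* (1.15) and *Chtop* (1.11) were also past 2-fold in log2 ratio. On the low side were *Thoc7* (34.5 FPKM and 12.0 FPKM, -1.29), *Zc3h11a* (-1.24) and *Sarnp* (-1.01), so that subunits of one complex lay on both sides. The tRNA ligase complex, with which *Ddx1* works, had 6 measured genes, 2 higher and none lower (median 0.42). Its catalytic subunit *Rtcb* was at 14.8 FPKM and 53.0 FPKM (1.93), next to 1.83 for *Ddx1*, and *Fam98c* was at 0.763 FPKM and 3.39 FPKM (1.41). Of 6 measured SMN complex genes besides *Ddx20*, *Gemin7* was higher (28.7 FPKM and 93.8 FPKM, 1.84) and *Smn1* was lower (81.8 FPKM and 31.1 FPKM, -1.21).

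G-patch proteins, which switch on DEAH-box helicases such as *Dhx15*, had 21 measured genes, 3 at least 2-fold higher and 4 at least 2-fold lower (median log2 ratio -0.40). *Tfip11*, the partner of *Dhx15* in taking spliceosomes apart, stood at 13.2 FPKM in control and 34.5 FPKM in depleted oocytes (1.48), opposite to *Dhx15*. *Sugp1* (1.06) and *Rbm17* (1.04) were the others above, and *Pinx1* (78.1 FPKM and 28.3 FPKM, -1.27), *Rbm5* (-1.19), *Son* (-1.01) and *Aggf1*, the last at the 2-fold line (11.1 FPKM and 4.48 FPKM), were those below. MIF4G-domain proteins, *Gle1* and other cofactors of DEAD-box helicases had 13 measured genes, 1 higher and 2 lower (median -0.33). They were *Eif4h* (35.5 FPKM and 103 FPKM, 1.67), and *Eif4g1* (28.1 FPKM and 9.87 FPKM, -1.27) and *Nupl2* (-1.24). The exon junction complex and its peripheral factors had 7 measured genes besides its helicase *Eif4a3*, which is counted with the related families below. Of these 7, 1 was higher (*Rbm8a*, 1.16) and 1 was lower (*Magohb*, -1.33), with a median of -0.89. Of 21 measured helicases of related families, 4 were higher, namely *Mov10* (1.45), *Mov10l1* (1.37), *Eif4a3* (60.5 FPKM and 134 FPKM, 1.30) and *Tdrd9* (1.27). *Eif4a2*, a translation initiation helicase, was lower (87.1 FPKM and 33.1 FPKM, -1.21), as was *Upf1*, the helicase of nonsense-mediated decay (21.0 FPKM and 7.68 FPKM, -1.19), which lay opposite to *Dhx34*. Their median was -0.40, against 0.40 for the Ddx and Dhx genes. The related helicases were longer, with a median deposited length of 4809 bases against 3368 bases. All measured genes of the long class had a median log2 ratio of -0.43. The part of length in this contrast was not tested.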

How the data were processed

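RNA-seq compared 3 libraries of *Btg4*-depleted oocytes with 3 control libraries, grouped by their labels. The authors made cDNA with a SMARTer kit from total RNA of 50 oocytes per library, and deposited the mean FPKM of each group with a transcript length per gene. BWA and the build mm9 are named in the submitters' processing notes, with the counting program, annotation and all versions not given in the sources used here. The authors also deposited a log2 ratio and probability per gene, and lists of genes called by DESeq2 (log2 fold change, p-value, adjusted p-value) and by NOISeq. These columns were not used, except the mean normalized count, a signal over all 6 libraries that the authors gave for the called genes, from which depth was estimated (5th to 95th percentile over genes 6920000 to 8120000 fragments per library).

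The planned limma test needs values of single libraries and was not run. Ratios were computed from group means after TMM scaling (30% of ratios and 5% of levels trimmed) with a pseudocount of 1 FPKM, over genes with a mean of at least 1 FPKM. FPKM depend on the transcript length and on priming from the poly(A) tail. The motif was searched as DE, any residue, then D or H, after a Walker A motif of the translated transcript. Transcripts of GENCODE M21 (GRCm38) closest to the deposited length were matched for 96.5% of measured genes and all 49 helicases; no coordinates were taken from mm9. Values are named for measured members, partners past 2-fold and *Btg4*. Unmeasured members, markers unlisted or past 2-fold, and genes that share sequence with a member (*Homer3*, *Dus2*, *Gm8228*) were named outside this rule, after values were seen. The helicases, roles and partner lists were chosen with earlier results of these data known. Python 3.11.15, numpy 2.4.6, pandas 2.3.3 and statsmodels 0.14.6 were used, and the scripts were tested on simulated data. Other scalings, pseudocounts, filters and a length correction were tried.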

Additional observations from a re-analysis of the deposited data

How the results depend on the processing

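The counts of helicases at least 2-fold higher or lower stayed within 1.5 times the 9 and 3 reported under all alternatives run, at 6 to 10 higher and 2 to 4 lower (6 of 36 higher at a minimum of 5 FPKM). The shares of all genes moved as well, so 19.5% and 11.4% hold for the main setting only. With the length trend removed 22.2% of helicases and 14.8% of all measured genes were higher, and 4.44% and 12.2% were lower. With no scaling 17.8% and 16.2% were higher, and 8.89% and 16.7% were lower. At a minimum of 5 FPKM 16.7% and 21.2% were higher, and 5.56% and 11.5% were lower. The median log2 ratio of 0.40 was 0.26 with no scaling and 0.26 with quantile normalization. The median of all measured genes moved too, from -0.02 to -0.15 and -0.11. Under the other alternatives it lay between 0.31 and 0.47, among them a set of 37 without genes that share reads with others, an alternative chosen after seeing the data. With the length trend removed *Dhx8* passed 2-fold (1.03) and *Ddx17* did not (-0.82), and with no scaling *Ddx3x* did (-1.11). The signs of *Ddx18*, *Ddx46*, *Dhx57* and *Dhx9*, all near 0, turned under at least one alternative. Of 351 values of single helicases 79 moved by more than their own 95% counting interval reaches and 272 did not. Alternatives that change only the filter cannot move the ratio of a single helicase. Their values are among the 272 by construction, so the 272 are no measure of stability. Leaving out each replicate was not run. No paired analysis was possible because only group means were analysed, whose columns carry no replicate numbers.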
